A study of Homo sapiens with 6 samples.

Results

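The mRNA levels of 10 genes of the Hippo pathway and its transcriptional output were followed in HepG2 cells after TGFβ treatment. They comprise 3 target genes (CYR61, CTGF and ANKRD1), a pair of junctional scaffolds (AMOTL1 and AMOTL2), the kinases LATS1 and LATS2, the coactivators YAP1 and WWTR1, and the DNA-binding factor TEAD1. The genes were picked by name, with earlier results of these data known. Each of the 10 was found as a single row among the 57773 genes of the deposited count table. The table lists CYR61 and CTGF under these older symbols for CCN1 and CCN2. HepG2 cells come from a human liver tumor and grow as a permanent line. RNA was sequenced from 3 cultures that received recombinant human TGFβ1 at 5 ng/mL and 3 cultures that received vehicle, all for 3 h. By the study's methods, the growth medium was replaced by medium without serum in both groups when ligand or vehicle was added. Each culture of a group is labeled as a separate sample, and the numbers 1 to 3 occur in both groups.

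The Hippo pathway is a kinase cascade that relays cell density, cell polarity and tension of the actin skeleton to transcription. The kinases LATS1 and LATS2, activated by the MST kinases (STK3 and STK4) with SAV1 and MOB1 proteins, phosphorylate YAP and its paralog TAZ, the product of WWTR1, and hold them in the cytoplasm. Unphosphorylated YAP and TAZ enter the nucleus and activate genes together with TEAD factors, among them the secreted matricellular proteins CYR61 and CTGF. Several of their target genes, such as LATS2 and AMOTL2, encode inhibitors of YAP itself. In the liver, the pathway is known for limiting organ size. Phosphorylation and location of these proteins are not seen in mRNA counts.

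Reads counted on genes ranged from 60815385 to 100099136 per culture. Genes with enough reads for testing numbered 22747, and they included all 10 genes. Levels are given as CPM (counts of a gene relative to the size of its library, scaled with edgeR's TMM factors). Each log2 fold change of TGFβ over vehicle and its standard error (SE) come from edgeR's quasi-likelihood test, with FDR values (P-values adjusted by Benjamini-Hochberg) over all tested genes. The established TGFβ targets SMAD7, SKIL and PMEPA1 rose in all TGFβ cultures, with log2 fold changes of 1.72, 2.45 and 4.30 and FDR values of at most 4.41e-05. All 8 hepatocyte markers examined were present, and 0 of them passed the FDR threshold of 0.05, while 2 of them, TTR and FGB, were lower with the block described below. Of 11 markers of fibroblasts, endothelial cells and leukocytes, 3 had enough reads for testing, with summed levels of the list from 1103 to 1434 CPM with vehicle and from 976 to 1059 CPM with TGFβ, most of it LYZ. The fibroblast markers COL1A2, COL3A1, DCN and LUM had 10, 6, 16 and 2 reads over the vehicle cultures and 11, 22, 13 and 0 over the TGFβ cultures, and KDR had 0 reads in both. PDGFRB, the third tested marker beside LYZ and CD14, had 5.01, 9.22 and 6.09 CPM with vehicle and 11.0, 24.0 and 12.5 CPM with TGFβ (log2 fold change 1.22, FDR 0.0582 without and 7.25e-06 with the block). LYZ was lower with the block only (log2 fold change -0.35, FDR 0.106 without and 0.0157 with it), and the part of these markers in the results below was not tested. In bulk RNA, fewer cells of a type and less RNA per cell cannot be told apart. Cultures with the same number deviated together, so results with the number as a block are given where they changed a call.

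Promoter sequences from RefSeq were matched for 8 of the 10 genes, and those upstream of CTGF, ANKRD1 and YAP1 are shown because they hold the core TEAD motif upstream of the start site. Each is the 250 bases before the RefSeq start site, read 5′ to 3′ on the strand of the gene, with the TEAD motif (GGAATG, or CATTCC on the other strand) in capitals. RefSeq gives them on GRCh38.p14, and the coordinates are those of their single exact match near the gene in GRCh37, the build of the deposited table.
CTGF, minus strand, chr6:132272513-132272762: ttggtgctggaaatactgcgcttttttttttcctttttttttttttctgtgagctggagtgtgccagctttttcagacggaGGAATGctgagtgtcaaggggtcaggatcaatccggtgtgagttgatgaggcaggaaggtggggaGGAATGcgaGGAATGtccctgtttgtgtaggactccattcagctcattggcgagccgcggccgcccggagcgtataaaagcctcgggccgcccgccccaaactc
ANKRD1, minus strand, chr10:92680845-92681094: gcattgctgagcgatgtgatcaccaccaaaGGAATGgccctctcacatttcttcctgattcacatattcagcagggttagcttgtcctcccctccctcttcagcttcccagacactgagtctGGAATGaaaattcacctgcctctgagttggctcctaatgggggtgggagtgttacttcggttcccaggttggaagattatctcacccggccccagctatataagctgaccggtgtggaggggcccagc
YAP1, plus strand, chr11:101980928-101981177: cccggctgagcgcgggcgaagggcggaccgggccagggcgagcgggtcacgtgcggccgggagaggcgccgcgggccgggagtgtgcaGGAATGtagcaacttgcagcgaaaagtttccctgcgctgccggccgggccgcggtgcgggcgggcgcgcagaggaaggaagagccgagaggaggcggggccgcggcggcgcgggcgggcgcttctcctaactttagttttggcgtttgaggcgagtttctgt

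CTGF held 3 TEAD motifs, which began 169, 104 and 95 bases upstream of the start site. ANKRD1 held 2, beginning 220 and 128 bases upstream, and YAP1 held 1, beginning 162 bases upstream. The deposited table places the 5′ end of ANKRD1 189 bases upstream of the RefSeq start site, between its 2 motifs. The RefSeq start sites of AMOTL1, WWTR1 and LATS1 lie 61925, 33441 and 1831 bases inside the genes as deposited, so their windows are not at the deposited 5′ ends. LATS2 held 1 TEAD motif at bases 10 to 15 after its start site, and no match was found in the 300-base windows of AMOTL1, AMOTL2, LATS1 and WWTR1. Across 27305 RefSeq promoter windows of the same length, 14.0% held at least 1 TEAD motif, 1.37% at least 2 and 0.146% at least 3. Core SMAD motifs (CAGAC or GTCTG), found in 45.0% of all windows, numbered 2 at ANKRD1 and at AMOTL1 and 1 at CTGF, AMOTL2 and LATS2. In ANKRD1 a SMAD motif and a TEAD motif share a base. The AP-1 motif (TGACTCA or TGAGTCA) and the CArG box of SRF, searched on both strands, lie in 4.92% and 1.29% of all windows and had 0 matches in these 8. These matches describe the sequence and were not tested as binding sites.

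**Figure D1:**
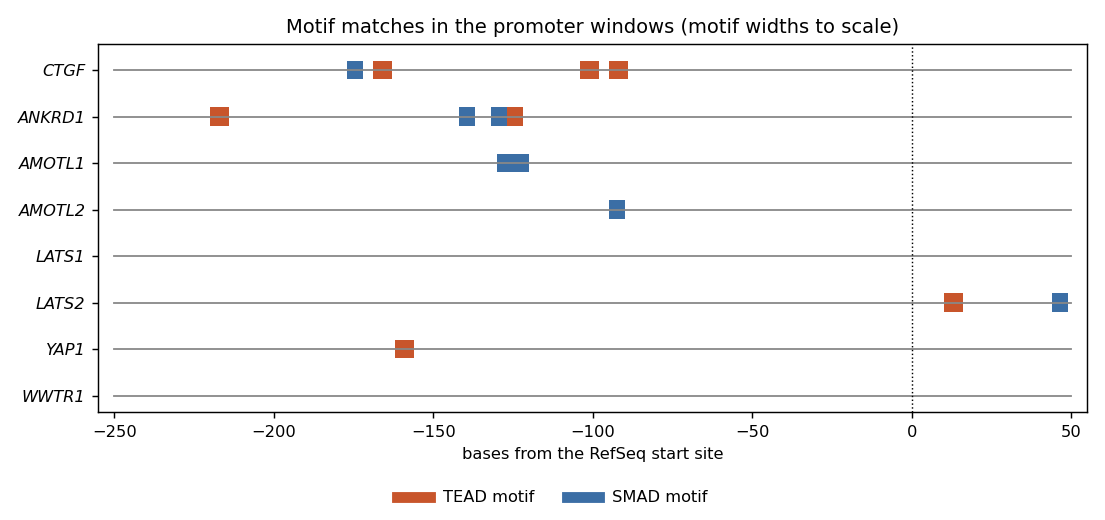
Motif matches in the RefSeq promoter windows of 8 genes, with bases from the start site on the horizontal axis and 1 line per gene. Orange boxes are TEAD motifs and blue boxes core SMAD motifs. CTGF holds 3 TEAD motifs upstream of the dotted start site, ANKRD1 2 and YAP1 1.

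At an FDR under 0.05, 4 of the 10 genes rose with TGFβ and 0 fell. These were CYR61, CTGF, AMOTL2 and WWTR1, and 3.11% of all tested genes rose at this threshold. The 10 genes and the lists below were chosen with earlier results of these data known. Their shares therefore do not measure an excess in the pathway. At an unadjusted P under 0.05 in edgeR's test, 6 of the 10 were higher and 0 lower, against 1976 higher and 1131 lower of all 22747 tested genes. DESeq2 and limma-voom also called 4 of the 10 higher and 0 lower. Over all 22747 tested genes, DESeq2 called 1009 higher and 406 lower, and limma-voom 696 and 225. The median log2 fold change was 0.32 over the 10 genes and -0.01 over all tested genes. In 5 of the 10 genes the lowest TGFβ culture lay above the highest vehicle culture, which held for 10.4% of all tested genes. With the culture number as a block, 6 genes rose and 0 fell, against 8.08% of all tested genes that rose in that fit. Leaving out a culture lowered the count to 2 without vehicle replicate 2 or TGFβ replicate 1, and to 1 without vehicle replicate 3 or TGFβ replicate 2. Calls over all tested genes fell as well, from 707 higher to 414, 509, 394 and 439 in these 4 fits. The count was 3 without vehicle replicate 1 and 4 without TGFβ replicate 3, with 617 and 778 higher over all genes. With total-count scaling it was 3, with 636 higher over all genes.

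**Figure D2:**
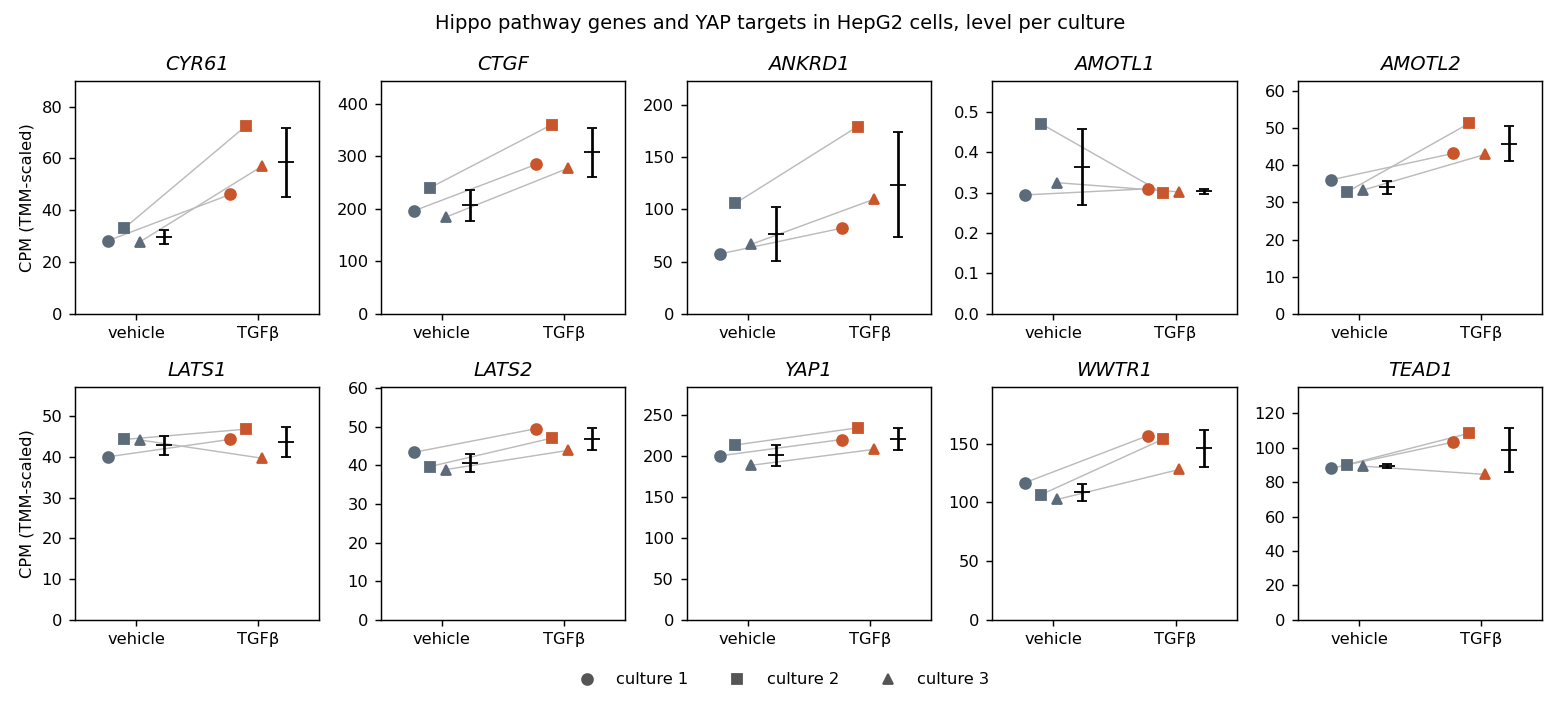
Level of each of the 10 genes in CPM (vertical axes, each starting at 0) in 3 vehicle and 3 TGFβ cultures, with marker shapes for culture numbers, gray lines joining equal numbers, and black bars for the mean ± SD. The groups of CYR61, CTGF, AMOTL2, LATS2 and WWTR1 do not overlap, and culture 2 is the highest of both groups for CYR61, CTGF, ANKRD1, LATS1, YAP1 and TEAD1.

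Among the target genes, CYR61 changed most. CYR61 (ENSG00000142871, plus strand of chromosome 1 from 86046444 to 86049645) measured 28.2, 32.9 and 27.7 CPM in vehicle cultures 1, 2 and 3 and 46.1, 72.7 and 57.0 CPM in the TGFβ cultures. The lowest TGFβ culture was thus well above the highest vehicle culture. It rose from 29.6 ± 2.88 to 58.6 ± 13.3 CPM (SD, n = 3), a log2 fold change of 0.98 (SE 0.15, FDR 0.00499), or 1.98-fold, and 98.3% of all tested genes had a smaller fold change. Within culture numbers 1, 2 and 3 the log2 ratio was 0.71, 1.14 and 1.04. CYR61 passed the FDR threshold in all 13 alternative settings, with log2 fold changes from 0.79 to 1.12.

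CTGF (ENSG00000118523, minus strand of chromosome 6 from 132269316 to 132272513), whose promoter with 3 TEAD motifs is shown above, was the gene of this group with most reads. It had 196, 240.1 and 184 CPM with vehicle and 285, 361 and 277 CPM with TGFβ, without overlap. It rose from 207 ± 29.5 to 308 ± 46.2 CPM (SD, n = 3), a log2 fold change of 0.57 (SE 0.13, FDR 0.0327), or 1.49-fold. The log2 ratios within culture numbers were 0.54, 0.59 and 0.59, closer together than the levels of either group, and with the block the SE was 0.05. The FDR threshold was lost with total-count scaling (FDR 0.0597), without vehicle replicates 1 and 3 (FDR 0.116 and 0.164) and without TGFβ replicates 1 and 2 (FDR 0.0506 and 0.125). CTGF overlaps the RNA gene RP11-69I8.3 (ENSG00000227220, chromosome 6 from 132272086 to 132398533), and the exonic bases they share were not determined. RP11-69I8.3 had between 408 and 1098 reads per culture, against at least 11335 for CTGF. Its log2 fold change was 0.58 (SE 0.21, FDR 0.213).

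ANKRD1 (ENSG00000148677, minus strand of chromosome 10 from 92671853 to 92681033) encodes an ankyrin repeat protein of muscle that acts in the nucleus and at the sarcomere and is widely used as a readout of YAP. It had 57.3, 106 and 66.6 CPM with vehicle and 82.1, 179.6 and 109.7 CPM with TGFβ. The groups overlapped, since vehicle culture 2 was above TGFβ culture 1. Its log2 fold change of 0.69 (SE 0.28, FDR 0.307) did not pass the threshold. Within culture numbers, however, TGFβ was higher each time, with log2 ratios of 0.52, 0.76 and 0.72. With the block its log2 fold change was 0.67 (SE 0.06, FDR 1.7e-05), the only one of 13 alternatives in which it was called. The spread of ANKRD1 between cultures was thus mostly shared by cultures of the same number.

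**Figure D3:**
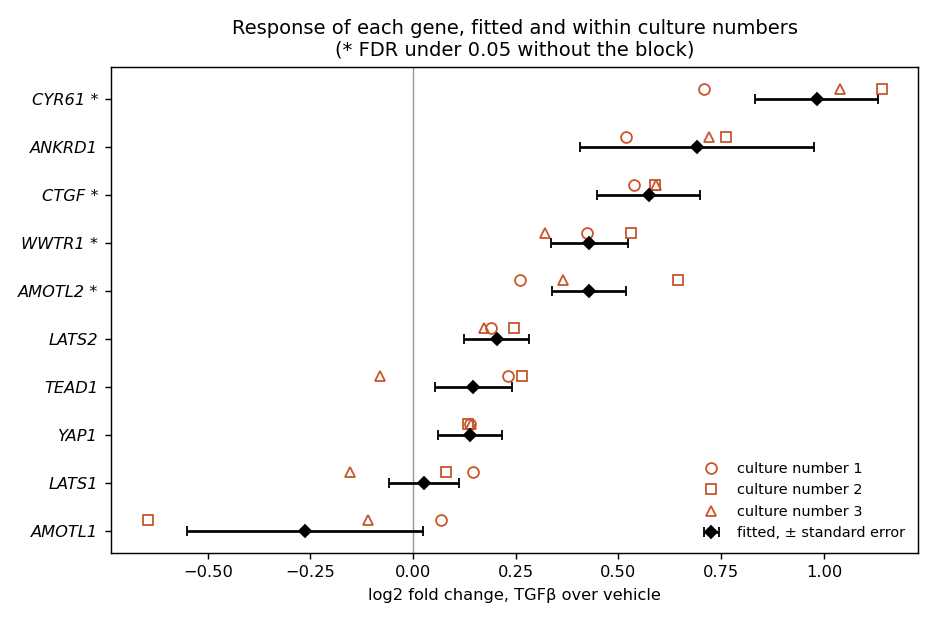
Log2 fold change of TGFβ over vehicle (horizontal axis) for each gene, as fitted by edgeR without a block (black diamonds ± standard error) and within culture numbers 1 to 3 (open orange markers). For CYR61, ANKRD1, CTGF, WWTR1, AMOTL2, LATS2 and YAP1 all 3 numbers lie above 0, and ANKRD1 has a wide SE although its 3 numbers lie from 0.52 to 0.76.

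Of the angiomotin family genes, AMOTL2 rose and AMOTL1 and AMOT did not pass the test. Their products are scaffolds of tight junctions that bind YAP and retain it outside the nucleus. AMOTL2 (ENSG00000114019, minus strand of chromosome 3 from 134074716 to 134094321) had 36.1, 32.8 and 33.3 CPM with vehicle and 43.2, 51.4 and 43.0 CPM with TGFβ. The groups did not overlap, and the log2 fold change was 0.43 (SE 0.09, FDR 0.0277), or 1.34-fold. The call was lost without vehicle replicates 2 and 3 (FDR 0.133 and 0.134) and without TGFβ replicate 2 (FDR 0.115). The pseudogene RPL39P5 overlaps the 3′ end of AMOTL2 on the same strand and had between 163 and 301 reads per culture, against at least 2052 for AMOTL2. It shares 187 exonic bases with AMOTL2 and had a log2 fold change of 0.44 (SE 0.16, FDR 0.208).

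AMOTL1 (ENSG00000166025, plus strand of chromosome 11 from 94439597 to 94609918) was close to the limit of detection, and its reads numbered 26, 39 and 20 with vehicle against 30, 24 and 22 with TGFβ. After scaling by library size, the 76 TGFβ reads were 0.831 times the 85 vehicle reads (exact 95% interval 0.602 to 1.15, for counting error alone). Its log2 fold change was -0.26 (SE 0.29, FDR 0.804). The interval leaves out the spread between cultures, so it does not bound the size of a possible change. The antisense RNA RP11-867G2.8 (ENSG00000255929), which overlaps AMOTL1 without shared exonic bases in the annotation, had between 20 and 43 reads per culture, about as many as AMOTL1 (log2 fold change 0.25, SE 0.34, FDR 0.840). The third angiomotin gene, AMOT, had 195 reads over the vehicle cultures and 259 over the TGFβ cultures (log2 fold change 0.29, SE 0.24, FDR 0.726).

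The LATS kinases, which phosphorylate YAP and TAZ, had similar levels in CPM. LATS2 (ENSG00000150457, minus strand of chromosome 13 from 21547171 to 21635686) had 43.4, 39.7 and 38.9 CPM with vehicle and 49.5, 47.1 and 43.9 CPM with TGFβ. The groups lay next to each other without overlap. Its log2 fold change was 0.20 (SE 0.08, FDR 0.273), or 1.15-fold, and the ratios within culture numbers were 0.19, 0.25 and 0.17. LATS2 passed the threshold with the block (FDR 0.0293) and in none of the other 12 alternatives. LATS1 (ENSG00000131023, minus strand of chromosome 6 from 149979289 to 150039392) had 40.1, 44.3 and 44.2 CPM with vehicle and 44.3, 46.8 and 39.7 CPM with TGFβ, so the groups overlapped fully. Its log2 fold change was 0.03 (SE 0.09, FDR 0.940), and its sign turned with total-count scaling.

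Of the coactivators, WWTR1 rose and YAP1 did not pass the test. WWTR1 (ENSG00000018408, minus strand of chromosome 3 from 149235022 to 149454501), which encodes TAZ, had 117, 107 and 103 CPM with vehicle and 157, 154 and 128 CPM with TGFβ, without overlap. It rose from 109 ± 7.41 to 146 ± 15.8 CPM (SD, n = 3), a log2 fold change of 0.43 (SE 0.09, FDR 0.0322), or 1.35-fold, with ratios within culture numbers of 0.42, 0.53 and 0.32. The call was lost without vehicle replicates 2 and 3 (FDR 0.135 and 0.169) and without TGFβ replicates 1 and 2 (FDR 0.121 and 0.140). The antisense RNA WWTR1-AS1 (ENSG00000241313, chromosome 3 from 149374807 to 149379151) lies inside WWTR1 and shares 756 exonic bases with it. Its reads numbered 1231, 1178 and 827 with vehicle against 1885, 1478 and 1184 with TGFβ (log2 fold change 0.38, SE 0.10, FDR 0.0646). The intronic RNA WWTR1-IT1 had between 6 and 17 reads per culture (log2 fold change -0.19, SE 0.49, FDR 0.922). WWTR1 itself had at least 6317 reads, and without knowledge of the strand setting reads on the shared bases cannot be told apart.

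YAP1 (ENSG00000137693, plus strand of chromosome 11 from 101981192 to 102104154) measured 200.2, 214 and 189 CPM with vehicle and 220.2, 234 and 208 CPM with TGFβ. Vehicle culture 2 was above TGFβ culture 3, but within each number the TGFβ culture was higher by a log2 ratio of 0.14, 0.13 and 0.14. The log2 fold change was 0.14 (SE 0.08, FDR 0.530), or 1.1-fold, and it missed the threshold with the block as well (SE 0.05, FDR 0.0877). The RNA gene RP11-864G5.3, whose 628 exonic bases all lie on exons of YAP1 on the other strand, had between 1973 and 3789 reads per culture. YAP1 had at least 11620. The log2 fold change of RP11-864G5.3 was 0.17 (SE 0.08, FDR 0.427).

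TEAD1 (ENSG00000187079, plus strand of chromosome 11 from 12695969 to 12966298), a DNA-binding partner of YAP and TAZ, had 88.1, 90.2 and 89.3 CPM with vehicle and 103, 108 and 84.5 CPM with TGFβ. TGFβ culture 3 was the lowest of all 6 and the other TGFβ cultures were the highest. The log2 fold change was 0.15 (SE 0.09, FDR 0.608), and the ratio within number 3 was -0.08. Number 3 was the only one in which the partners were sequenced on different lanes, and the part of the lane was not tested. LATS1 showed the same sign pattern, with ratios of 0.15, 0.08 and -0.15.

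Levels of different genes were compared per coding length, with the deposited RPKM values. In the vehicle cultures CTGF was highest at 73.3 ± 12.2 RPKM (SD, n = 3), followed by ANKRD1 at 32.2 ± 11.7, YAP1 at 26.4 ± 2.21, WWTR1 at 10.7 ± 0.707, CYR61 at 10.0 ± 1.21 and TEAD1 at 6.83 ± 0.231 RPKM. Below these were LATS2 at 5.86 ± 0.321, AMOTL2 at 4.71 ± 0.196, LATS1 at 4.10 ± 0.291 and AMOTL1 at 0.0301 ± 0.00854 RPKM. The ranges of neighbors in this order overlapped for ANKRD1 and YAP1 and for WWTR1 and CYR61, and for no other neighbors. With TGFβ the order of the means was the same except that CYR61, at 19.3 ± 4.78 RPKM, was above WWTR1, at 14.1 ± 1.94. The paralog with the higher level per length was YAP1 over WWTR1, LATS2 over LATS1, and AMOTL2 over AMOTL1. Among the TEAD factors, vehicle cultures held TEAD4 at 16.3 ± 0.729, TEAD3 at 12.4 ± 1.23, TEAD1 at 6.83 ± 0.231 and TEAD2 at 4.33 ± 0.170 RPKM, with no overlap between neighbors. TEAD1 was thus the third of these 4 genes by level in these cells.

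Ratios of related genes inside a library do not depend on the scaling between libraries, and 4 such ratios were computed on log2 counts with 0.5 added. The log2 ratio of WWTR1 to YAP1 was -0.78, -1.0 and -0.88 with vehicle and -0.49, -0.61 and -0.70 with TGFβ. It was higher in every TGFβ culture, by 0.29 on average (P = 0.1, two-sided exact permutation). This test exchanged cultures freely, without keeping culture numbers together, and its P can go no lower with 3 cultures in each group. The log2 ratio of CTGF to CYR61 was 2.80, 2.87 and 2.73 with vehicle and 2.63, 2.31 and 2.28 with TGFβ. It was lower in every TGFβ culture, by -0.39 on average (P = 0.1, two-sided exact permutation), and the differences within culture numbers were -0.17, -0.55 and -0.45. The ratio of AMOTL2 to AMOTL1 was higher in every TGFβ culture, by 0.65 on average (P = 0.1, two-sided exact permutation), and rests on the few reads of AMOTL1. The ratio of LATS2 to LATS1 was 0.11, -0.16 and -0.18 with vehicle and 0.16, 0.01 and 0.14 with TGFβ. Its groups overlapped, and the difference of 0.18 did not separate them (P = 0.2, two-sided exact permutation). Within culture numbers the differences were 0.04, 0.17 and 0.33.

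**Figure D4:**
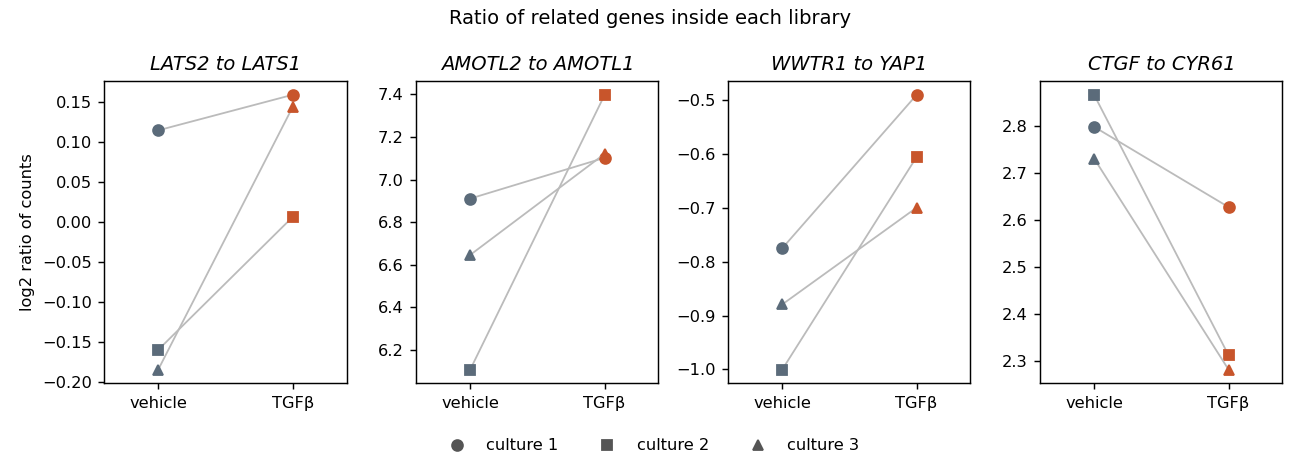
Log2 ratio of read counts of related genes inside each library (vertical axes, scaled separately and not starting at 0), vehicle on the left and TGFβ on the right of each panel, with marker shapes for culture numbers and lines joining equal numbers. The ratios of WWTR1 to YAP1 and of AMOTL2 to AMOTL1 are higher and that of CTGF to CYR61 is lower in all 3 TGFβ cultures, while the ratio of LATS2 to LATS1 overlaps.

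The wider Hippo pathway was followed with a list of 50 further genes, from its kinases and scaffolds to TEAD cofactors. This list, too, was written with earlier results of these data known. Enough reads were present for 47, of which 3 (6.38%) rose at an FDR under 0.05 and 0 fell, against 3.11% of all tested genes that rose. At an unadjusted P under 0.05 in edgeR's test, 15 were higher and 1 was lower, against 1976 and 1131 of all 22747 tested genes. DESeq2 called 6 of the list higher and limma-voom 3, and both called 0 lower. Over all tested genes they called 1009 and 696 higher and 406 and 225 lower. The median log2 fold change of the list was 0.13, against -0.01 for all tested genes, and 34 of 47 values (72.3%) were positive, against 49.0% of all tested genes. SAV1, the adaptor of the MST kinases, had 16.8, 16.2 and 16.0 CPM with vehicle and 22.2, 21.9 and 19.7 CPM with TGFβ (log2 fold change 0.38, SE 0.09, FDR 0.0383). RASSF4, a member of the RASSF family of Ras-association proteins, had 78.6, 76.2 and 76.7 CPM with vehicle and 107, 96.5 and 95.8 CPM with TGFβ (log2 fold change 0.37, SE 0.07, FDR 0.0179). MAP4K4, a kinase that can act on LATS in parallel with the MST kinases, had 1074, 1052 and 1139 CPM with vehicle and 1283, 1431 and 1355 CPM with TGFβ (log2 fold change 0.32, SE 0.08, FDR 0.0492). In all 3 genes the groups did not overlap. All 3 lost their call without vehicle replicate 2 or 3 and without TGFβ replicate 1 or 2, with FDR values from 0.0537 to 0.225. Without vehicle replicate 1, RASSF4 passed (FDR 0.0416), and without TGFβ replicate 3, RASSF4 and SAV1 passed (FDR 0.0245 and 0.0316). With total-count scaling only RASSF4 of the 3 passed (FDR 0.0228). MAP4K4 also lost its call with the size factors of DESeq2 (FDR 0.0510), and SAV1 without a filter (FDR 0.0523). Of the 13 alternatives, RASSF4 passed in 9, SAV1 in 6 and MAP4K4 in 5.

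With the culture number as a block, 16 of the 47 genes (34.0%) rose and 0 fell, against 8.08% of all tested genes that rose in that fit. The 13 added genes are named after their values were seen. They were the scaffolds WWC1, WWC2, WWC3 and RASSF2, the polarity genes CRB3 and DLG1, the LIM proteins AJUBA and WTIP, the casein kinases CSNK1D and CSNK1E, and TEAD3, TEAD4 and VGLL3. WWC1, which encodes the NF2 partner KIBRA, had 40.0, 39.3 and 36.3 CPM with vehicle and 53.3, 48.4 and 44.7 CPM with TGFβ (log2 fold change 0.34, FDR 0.0608 without and 0.00167 with the block). AJUBA, an inhibitor of LATS, had 399, 267 and 312 CPM with vehicle and 459.6, 403 and 401 CPM with TGFβ (log2 fold change 0.37, FDR 0.214 without and 0.00386 with the block). TEAD4 had 46.5, 44.7 and 43.0 CPM with vehicle and 57.3, 52.7 and 53.4 CPM with TGFβ (log2 fold change 0.28, FDR 0.0652 without and 0.00405 with the block). For these 3 genes as well the groups did not overlap, while those of WWC2, CRB3, CSNK1D, CSNK1E and TEAD3 among the 13 did. Of all 47 genes, every TGFβ culture lay above every vehicle culture in 14 and below in 3. This held for 2370 and 1871 of all 22747 tested genes. TEAD3 had a log2 fold change of 0.20 (FDR 0.415 without and 0.0446 with the block) and TEAD2 of -0.01 (FDR 0.970).

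The TEAD cofactors of the Vestigial-like family were low apart from VGLL4, a repressor that competes with YAP for TEAD. Reads of VGLL3 numbered 13, 15 and 18 with vehicle against 34, 65 and 36 with TGFβ. Its log2 fold change was 1.43 (SE 0.40, FDR 0.0899) and passed in 4 of 13 alternatives, among them the block (FDR 0.0159) and DESeq2 (FDR 0.0494). This was the largest log2 fold change of the list. VGLL4 had a log2 fold change of -0.07 (FDR 0.788), VGLL2 had 2 reads in each group, and VGLL1 had 0 reads. At the other end of the list, reads of RASSF6 numbered 34, 41 and 21 with vehicle against 17, 26 and 18 with TGFβ (log2 fold change -0.73, SE 0.32, FDR 0.349). The core kinases STK3 and STK4 had log2 fold changes of -0.05 and 0.04 (FDR 0.909 and 0.888), and NF2, the upstream activator of LATS also known as Merlin, of -0.04 (FDR 0.907).

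**Figure D5:**
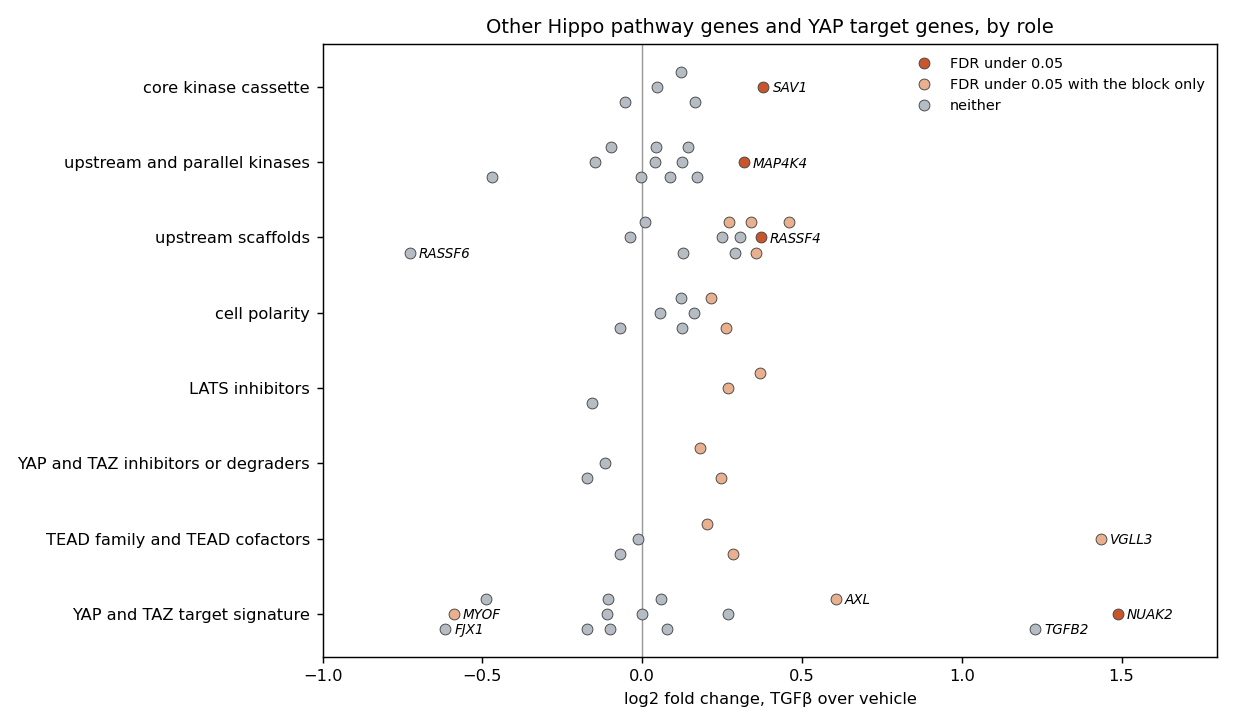
Log2 fold change of TGFβ over vehicle (horizontal axis) for the tested genes of the Hippo list and of the YAP target list, 1 line per role, with filled orange points for an FDR under 0.05, pale orange for an FDR under 0.05 with the block only, and gray for neither. SAV1, MAP4K4, RASSF4 and NUAK2 are the called genes, and the YAP target line spreads from -0.62 to 1.49.

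A widely used YAP and TAZ target signature also holds CYR61, CTGF, ANKRD1, AMOTL2 and LATS2 of the genes above. These had log2 fold changes of 0.98, 0.57, 0.69, 0.43 and 0.20, and the counts below leave them out. The other 17 genes of the signature did not move in 1 direction. Of 14 with enough reads, 1 rose (7.14%) and 0 fell at an FDR under 0.05, against 3.11% of all tested genes that rose. At an unadjusted P under 0.05 in edgeR's test 4 were higher and 2 lower, beside the all-gene counts given above. DESeq2 called 2 higher and 0 lower, and limma-voom 1 higher and 0 lower, beside the all-gene counts of these tests given above. Across the 14 genes the median was -0.05 on the log2 scale, with 6 of 14 values positive (42.9%, against 49.0% of all tested genes). The gene that rose was NUAK2, an AMPK-related kinase that raises actomyosin tension and YAP activity. It had 4.62, 5.35 and 4.77 CPM with vehicle and 11.6, 15.7 and 14.1 CPM with TGFβ. Its log2 fold change of 1.49 (SE 0.14, FDR 0.000305) was above that of each of the 10 genes. NUAK2 passed in all 13 alternatives.

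With the block, CYR61, CTGF, ANKRD1, AMOTL2 and LATS2 of this signature rose. Of its other genes, 2 rose and 1 fell, against 8.08% and 3.75% of all tested genes. The second that rose was AXL, a receptor tyrosine kinase, with 11.1, 13.4 and 11.5 CPM with vehicle and 14.9, 23.8 and 16.1 CPM with TGFβ (log2 fold change 0.61, SE 0.17, FDR 0.0961 without and 0.00113 with the block). The gene that fell was MYOF, a membrane protein of the ferlin family, with 2.63, 3.40 and 4.30 CPM with vehicle and 1.58, 2.42 and 2.87 CPM with TGFβ (log2 fold change -0.59, SE 0.25, FDR 0.331 without and 0.0130 with the block). Reads of TGFB2, a TGFβ ligand, numbered 4, 10 and 9 with vehicle against 27, 17 and 16 with TGFβ (log2 fold change 1.23, SE 0.43, FDR 0.200), and FJX1 had -0.62 (SE 0.27, FDR 0.341). The phosphatase PTPN14, which is on both lists, had -0.17 (FDR 0.612). CRIM1, ASAP1, DOCK5 and GADD45A, each with at least 2272 reads per culture, had log2 fold changes of -0.11, 0.08, 0.06 and -0.11. None of these passed the test. Every TGFβ culture lay above every vehicle culture in 4 of the 14 genes with enough reads and below in 2. This held for 2370 and 1871 of all 22747 tested genes. Among the 4 was F3, with a log2 fold change of 0.27 (FDR 0.314).

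The other members of the CCN family, to which CYR61 and CTGF belong, were hardly expressed. NOV had 4 reads over the vehicle cultures and 0 over the TGFβ cultures, WISP1 had 0 and 2, and WISP2 had 28 and 34. WISP3 alone had enough reads for testing, with 97 over the vehicle and 120 over the TGFβ cultures (log2 fold change 0.22, SE 0.34, FDR 0.866).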

How the data were processed

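Per the labels and the paper's methods, mRNA libraries (TruSeq v2) of 6 HepG2 cultures were sequenced with paired reads, and the authors aligned them to hg19 and counted reads per gene with MAPRseq. The submitters' processing notes also name TopHat2 2.0.6 and HTSeq. The sources used here give neither the annotation release nor the strand setting. The authors' counts are unnormalized whole numbers, and the deposited RPKM values are scaled by the coding length in the table and by the authors' library totals. RPKM values were used only to compare levels between genes.

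Counts were analysed with edgeR 4.0.16 (limma 3.58.1, R 4.3.3): TMM normalization, filterByExpr, robust quasi-likelihood F test, Benjamini-Hochberg adjustment over 22747 genes. SE values were derived from the fold change and its F statistic. The scripts were tested on simulated data. Same-numbered cultures had correlated deviations from their group means (0.366, 0.227 and 0.316 for numbers 1, 2 and 3). The number was used as a block in an alternative fit. The main fit and the exact permutation tests did not use it. Numbers 1 and 2 shared lanes with their partners. The 10 genes and all lists, written from general knowledge, were chosen with earlier results of these data known. Named genes are the 10 genes, the TGFβ targets, the CCN, TEAD and VGLL families, all genes of both lists at an FDR under 0.05, the 2 largest changes per list that missed it, and overlapping genes with at least 10 reads in a culture. STK3, STK4, NF2, AMOT, PTPN14, CRIM1, ASAP1, DOCK5, GADD45A, F3 and the genes called only with the block were added after their values were seen. A gene that was examined is not reported here. Alternatives were other scalings (size factors of DESeq2, library totals), other filters (none, or a minimum of 10 counts per library), other tests (DESeq2 1.42.0, limma-voom), the block, and leaving out each culture. P-values set the difference between groups against the spread between these cultures, and with the block against the spread that the numbers do not share. Overlapping genes were found from the deposited coordinates, and strands and shared exonic bases from a GENCODE annotation on GRCh37.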

Additional observations from a re-analysis of the deposited data

How the results depend on the processing

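Among refits of named genes, 439 kept direction and side of the FDR threshold, 31 lost and 29 gained a call, and 5 changed sign, none of them called. The log2 fold change of LATS1 was -0.016 with total-count scaling and ranged from -0.038 (without TGFβ replicate 2) to 0.082 with single cultures left out, also turning without vehicle replicate 1. That of TEAD2 ranged from -0.038 to 0.0084 and that of WISP3 from -0.0095 to 0.61. Over all genes, 707 were higher and 230 lower. With the culture number as a replicate block, 1837 were higher and 853 lower, and the Hippo list had 16 higher and the YAP target list 2 higher and 1 lower. Among the 10 genes, both lists, the TGFβ targets and the CCN family, the block added or removed no call beside those named above as called only with it. The overlapping genes were not read out with the block. Without a filter, 366 genes were lower. With DESeq2, 406 genes were lower, 6 of the Hippo list were higher and 2 of the YAP targets were higher. With total-count scaling 1 of the Hippo list was higher, and the median over all genes moved from -0.01 to -0.05. With single cultures left out, between 394 and 778 genes were higher and between 91 and 220 lower, between 1 and 4 of the 10 genes were higher, between 0 and 4 of the Hippo list, and between 1 and 2 of the YAP targets. Ratios of related genes kept their sign in all alternatives. Few reads limit the precision for AMOTL1, VGLL3, TGFB2 and the CCN genes other than CYR61 and CTGF.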
